A study of Arabidopsis thaliana with 10 samples.

Results

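In Arabidopsis roots, 65 of 22197 tested probe sets stood at least 2-fold higher at low than at full sulfate both in the wild type and in the sdi1sdi2 double knockout, and reached similar levels at low sulfate in the 2 genotypes. They were chosen from the measured values, on a log2 scale: a difference of at least 1 between low and full sulfate in each genotype, a difference between -0.6 and 0.6 of the knockout from the wild type at low sulfate, and a wild-type mean at low sulfate above 0.5. The beta-glucosidase gene BGLU28, the isoflavone reductase-like genes AT1G75280 and AT1G75290, and numbered GSTU, XTH and UGT genes were left out by name. Of the 68 probe sets that met the numeric conditions, this removed 3, namely BGLU28, AT1G75280 and GSTU27. The probe annotation pairs 29 of the 65 with 1 gene and 2 with several genes, and 34 have no listed gene and are given here by probe set ID only.

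The data are expression values from 10 ATH1 arrays, a short-oligonucleotide array, hybridised with RNA of roots from plants grown for 10 days on agar. The 5 groups of 2 arrays were the double knockout sdi1sdi2 (WKO, lines 1 and 4) at 15 µM sulfate (-S), wild-type Columbia (Col) at -S, lines 6 and 12 that overexpress SDI1 (OX) at 1500 µM sulfate (+S), WKO at +S and Col at +S. OX roots at -S were not analysed here. Within a group, the WKO or OX arrays are of different lines, and both WKO lines were grown at -S and at +S, while the labels do not say whether the paired Col arrays came from separate cultures, so p-values measure the spread between these arrays and that spread may be partly technical. The promoter that drives SDI1 in OX and the nature of the knockout alleles are not given in the sources used here.

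Roots take up sulfate through plasma membrane transporters, and the cell activates it with ATP sulfurylase, reduces it to sulfide and builds it into cysteine. Cysteine feeds methionine, the redox peptide glutathione and, in Arabidopsis and its relatives, the glucosinolates, which also act as a store of sulfur. When sulfate is short, roots raise genes of uptake and of sulfur release from glucosinolates and glutathione, much of this under the transcription factor SLIM1. SDI1 and SDI2 are themselves raised by sulfur shortage, and SDI1 is known to restrain the synthesis of aliphatic glucosinolates through the transcription factor MYB28.

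The array values did not contradict the labels. SDI2 stood at -0.61 ± 1.29 in WKO -S and 5.56 ± 0.13 in Col -S (log2 level, SD, n = 2 in each group here and below). The 2 WKO -S arrays thus differed widely in SDI2, which was at or under background on 2 of the 10 arrays. SDI1 itself has no listed probe set, so the OX label could not be checked on it. Arrays of a group correlated at 0.9904 to 0.9959. Of 9 root markers, the 4 with a listed probe set (PYK10, EXPA7, EXPA18 and SGN3) were above background on all 10 arrays. EXPA7 and EXPA18, expansins of root hair cells, stood higher at -S, as the members did, by 0.19 and 0.41 in WKO, neither called, and by 0.76 and 0.77 in Col, both called (limma adjusted p = 0.011 and 0.015). PYK10 and SGN3 were not called in either genotype. Of 7 shoot markers 3 had a listed probe set, RCA, LHCB4.1 and PSAE1, and these were above background too, except PSAE1 on 1 array. All 3 stood lower at -S, by 0.58, 0.67 and 0.55 in WKO and by 0.93, 0.69 and 0.77 in Col on the log2 scale, opposite in direction to the members. The limma test called LHCB4.1 in WKO and all 3 in Col, and in WKO the adjusted p was 0.092 for RCA and 0.13 for PSAE1. The part of the root hair and shoot markers in the results was not tested. In whole roots, fewer cells of a type and less RNA per cell cannot be told apart.

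Across the members, every -S array lay above every +S array of Col and WKO, with a smallest gap of 0.39 on the log2 scale. Over all probe sets, both -S arrays lay above both +S arrays for 25% in WKO and for 25.4% in Col. The difference of -S from +S had a median of 1.58 in WKO and of 1.57 in Col. For the 57 members with a +S array above background in each genotype it ran from 1.02 to 5.90 in WKO and from 1.03 to 7.14 in Col. The 7.14 was that of 249752_at and rests in part on a value under background, since 1 Col +S array lay under it. For the other members only a bound can be given in at least 1 genotype. Over all probe sets these medians were 0.00028 in WKO and 0.018 in Col. These contrasts chose the members, so their values are a description. In the limma fit, 64 of the 65 were called higher in WKO, where 2.92% of all probe sets were, and 64 in Col, where 4.44% were. The exception in both was 264953_at, whose arrays varied most, at 3.22 and 2.40 in WKO -S and 3.03 and 1.81 in Col -S, against 1.42 and 1.37 in WKO +S and 1.39 and 1.09 in Col +S. The response of knockout line 4 minus that of line 1 ran from -0.77 to 0.61, with a median of -0.04, and was larger in line 4 for 30 members and in line 1 for 35. At -S, WKO stood above Col for 41 members and below it for 24, with a median difference of 0.10. The choice of members held this difference within 0.6, so it is a description too. Its unadjusted limma p was under 0.05 for 26 members (40%), against 18.5% of all probe sets.

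**Figure D1:**
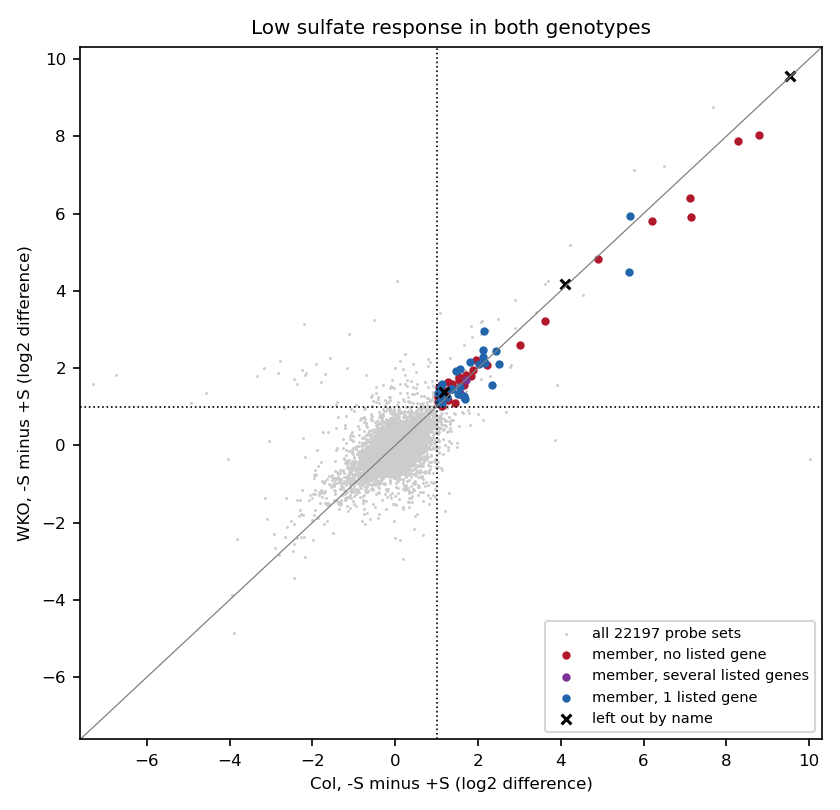
Log2 difference of -S from +S in WKO (vertical axis) and Col (horizontal axis) for each probe set, with the 65 members in colour, the 3 left out by name as crosses, dotted lines at the threshold of 1 and a line of equal response. The members run along the line of equal response from the threshold up to 8.02 in WKO and 8.78 in Col, where the highest points rest on +S values under background.

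The size of the response was uneven. Taking values under background as they stand, a difference of at least 4 in both genotypes was reached by 8 members, of at least 2 by 18, and the other 47 lay under 2 in at least 1 genotype. Of the 12 members with the largest mean response, 8 have no listed gene. The strongest, 252269_at, read 7.59 and 7.68 in WKO -S and 7.18 and 7.37 in Col -S, against -0.25 and -0.52 in WKO +S and -1.31 and -1.70 in Col +S. Next came 246884_at, with 6.90 and 7.17 in WKO -S and 6.69 and 6.84 in Col -S, against -0.87 and -0.80 in WKO +S and -1.43 and -1.59 in Col +S. Both were bright at -S in either genotype and dim at +S. Background was set on each array at the 95th percentile of 22 bacterial control probe sets. Where every array of a group lay under it, a fold is a lower bound on the deposited scale. Spiked controls lay 2.13 units apart on that scale where 1.82 is expected, so folds of bright probe sets may be overstated. By that measure 246884_at was at least 187-fold higher at -S than at +S in WKO and at least 145-fold in Col. The same bound in Col was 207-fold for 252269_at and 134-fold for 255105_at, whose Col +S arrays also lay under background.

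For 6 members all +S arrays of every genotype, OX included, lay at or under background, and 50 members were above background on all 10 arrays. No -S array of Col or WKO lay under background for any member, which the threshold of 0.5 on the Col -S mean partly sets.

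**Figure D2:**
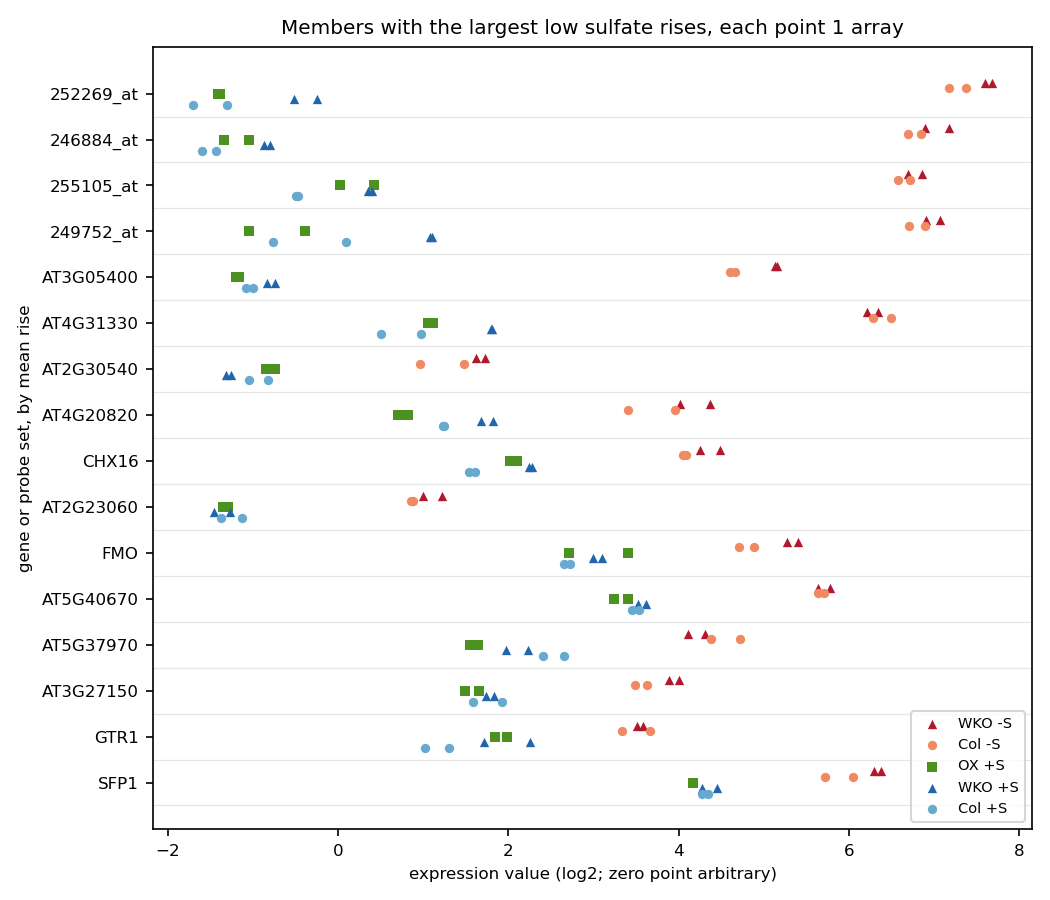
Log2 expression value on each array for the 12 named members with the largest response and for the 4 strongest probe sets without a listed gene, one point per array, in the order WKO -S, Col -S, OX +S, WKO +S and Col +S within each row. The -S points lie to the right of all +S points in each row. In most rows, some of them under background at +S, the WKO +S points lie to the right of the Col +S points. This does not hold for AT2G30540, AT2G23060, AT5G40670, AT5G37970, AT3G27150 and SFP1.

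Transport proteins made up 5 of the 29 members with 1 listed gene, and the 4 measured at +S had responses of 1.57 to 2.14 in WKO and 1.58 to 2.50 in Col. AT3G05400, a sugar porter of the ERD6-like family, read 5.16 and 5.13 in WKO -S and 4.61 and 4.66 in Col -S, against -0.74 and -0.83 in WKO +S and -1.005 and -1.09 in Col +S. All 4 +S arrays lay under background, so the response was at least 50.3-fold in WKO and at least 33.1-fold in Col. AT3G05400 was near the upper edge of the genotype window, with WKO -S above Col -S by 0.51 (limma adjusted p = 0.021). SFP1, a second ERD6-like sugar porter, was bright already at full sulfate, with 6.38 and 6.30 in WKO -S and 6.05 and 5.72 in Col -S, against 4.45 and 4.28 in WKO +S and 4.27 and 4.34 in Col +S. A probe set shared by the neighbouring ERD6-like genes AT3G05160 and AT3G05165, which it cannot tell apart, responded by 1.69 in WKO and 1.71 in Col.

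AT5G40670 encodes the Arabidopsis counterpart of cystinosin, the carrier that releases the disulfide amino acid cystine from lysosomes in animals. It read 5.78 and 5.64 in WKO -S and 5.64 and 5.70 in Col -S, against 3.62 and 3.52 in WKO +S and 3.46 and 3.53 in Col +S. The genotypes overlapped at each sulfate level, and the response was 2.14 in WKO and 2.18 in Col. CHX16, a member of the cation/proton exchanger family, read 4.49 and 4.25 in WKO -S and 4.09 and 4.05 in Col -S, against 2.28 and 2.24 in WKO +S and 1.54 and 1.61 in Col +S. GTR1, a plasma membrane importer of glucosinolates, read 3.51 and 3.58 in WKO -S and 3.66 and 3.34 in Col -S, against 2.25 and 1.71 in WKO +S and 1.02 and 1.30 in Col +S. At +S, CHX16 and GTR1 stood higher in WKO than in Col, neither called (limma adjusted p = 0.12 and 0.36). At -S, the genotypes overlapped for GTR1, while for CHX16 both WKO arrays lay above both Col arrays.

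Enzymes of oxidation and redox control accounted for 6 members, with responses of 1.20 to 2.44 in WKO and 1.13 to 2.44 in Col for the 5 measured at +S. AT2G30540, a glutaredoxin, a class of small enzymes that reduce disulfides with glutathione, read 1.62 and 1.72 in WKO -S and 1.48 and 0.96 in Col -S, against -1.32 and -1.26 in WKO +S and -0.82 and -1.04 in Col +S. Its +S arrays were under background, so its response was at least 4.53-fold in WKO and at least 3.11-fold in Col. The flavin-dependent monooxygenase FMO (AT1G12200) read 5.28 and 5.41 in WKO -S and 4.89 and 4.71 in Col -S, against a mean of 3.05 ± 0.07 in WKO +S and 2.65 and 2.72 in Col +S. AT4G20820, an oxidase of the berberine bridge enzyme family, read 4.37 and 4.01 in WKO -S and 3.96 and 3.40 in Col -S, against 1.82 and 1.68 in WKO +S and 1.25 and 1.24 in Col +S. These last 2 genes lay within the window with WKO -S above Col -S by 0.54 and 0.51. The short-chain dehydrogenase AT1G64590, the 2-oxoglutarate-dependent oxygenase AT3G19000 and the class III peroxidase AT3G49960 responded by 1.92, 1.58 and 1.20 in WKO and by 1.46, 1.13 and 1.68 in Col.

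Enzymes that transfer chemical groups were 4 members. AT5G37970, a methyltransferase of the SABATH family that uses S-adenosylmethionine, read 4.11 and 4.31 in WKO -S and 4.38 and 4.73 in Col -S, against 2.23 and 1.97 in WKO +S and 2.66 and 2.41 in Col +S. AT2G23060, an N-acetyltransferase-like gene related to HOOKLESS1, read 1.00 and 1.22 in WKO -S and 0.88 and 0.86 in Col -S, and its +S arrays lay under background, which puts the response at no less than 3.08-fold in WKO and 2.43-fold in Col. The aminotransferase-like AT1G77670 responded by 1.26 in both genotypes. AT1G78990, an acyltransferase of the BAHD type, responded by 1.36 in WKO and 1.03 in Col.

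Among hydrolases, BGLU15 is a beta-glucosidase gene that lies directly beside BGLU28 in the reference gene order, with no coding gene between them. BGLU15 read 4.80 and 4.69 in WKO -S and 4.69 and 4.94 in Col -S, against 3.25 and 3.20 in WKO +S and 3.19 and 3.31 in Col +S. The genotypes overlapped at both sulfate levels, and the response was 1.52 in WKO and 1.57 in Col. For BGLU28, all of whose +S arrays were under background, it was at least 457-fold in WKO and at least 365-fold in Col on the deposited scale. The 4 other hydrolases were the alpha/beta hydrolases AT4G24140 and AT4G36610, the GDSL-type lipase AT5G37690 and the chitinase-like AT2G43590, with responses of 1.36 to 1.47 in WKO and 1.09 to 1.38 in Col.

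Genes of signalling or protein turnover were 3 members, all with moderate responses. AT3G27150, an F-box protein with kelch repeats, whose transcript is a known target of the phosphate-responsive microRNA miR2111, read 4.01 and 3.89 in WKO -S and 3.63 and 3.48 in Col -S, against 1.74 and 1.83 in WKO +S and 1.92 and 1.59 in Col +S. The U-box protein kinase AT5G51270 and the leucine-rich repeat kinase AT1G51830 responded by 1.33 and 1.11 in WKO and by 1.52 and 1.11 in Col.

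The remaining 6 named members hold AT4G31330, a predicted membrane protein of unknown function with one of the largest responses among named genes. AT4G31330 read 6.21 and 6.34 in WKO -S and 6.29 and 6.49 in Col -S, against 1.79 and 1.81 in WKO +S and 0.97 and 0.50 in Col +S. The genotypes overlapped at -S and were apart at +S. The others were AT3G19430, the remorin AT4G00670, a member of a membrane-bound protein family of lipid rafts, the WCOR413-like cold-acclimation protein AT4G37220, AT4G33960 and AT2G47200, with responses of 1.099 to 1.46 in WKO and 1.07 to 1.66 in Col.

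Some values lay close to the thresholds. For the genotype window, AT3G49960 was just inside at -0.58 and AT5G37990 just outside at -0.62 at the lower edge, and FMO was inside at 0.54 and AT1G75290 outside at 0.67 at the upper edge. For the response in Col, AT1G78990 was inside at 1.03 and AT5G13900 outside at 0.92, and for that in WKO AT4G37220 was inside at 1.099 and EULS3 outside at 0.97. For the -S level in Col, AT1G51830 was inside at 0.85 and AT2G17650 outside at 0.39. Of the 98 probe sets (0.442%) that were at least 2-fold higher at -S in both genotypes and above that level, 25 lay above the window, with WKO higher, 5 below it and 68 within it.

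Among probe sets with 1 listed gene, the fixed lists of sulfur genes held 1 member, and few of their genes have such a probe set. A list gene is called measured only where a probe set lists it alone. Whether the 34 members with no listed gene include genes of these lists cannot be told from the annotation used. Of 14 genes of glucosinolate breakdown and transport 4 were measured, and GTR1 was the member among them. Of 20 genes of sulfate assimilation 3 were measured and none was a member. ATPS3, an ATP sulfurylase, was called higher at -S in both genotypes but stood at 4.78 in WKO -S and 2.94 in Col -S, outside the window. The sulfite reductase SIR responded by 1.37 in WKO and by -0.47 in Col, and ATPS4 by -3.87 in WKO and -3.94 in Col. The only measured gene of 10 in glutathione breakdown, GGCT2;3, differed by -0.02 in WKO and -0.19 in Col, neither called. Of 16 sulfur deficiency markers 2 had a listed probe set, SDI2 and BGLU28, and no sulfate transporter of 12 had one.

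At full sulfate, WKO was set against Col as a description, since all 4 arrays entered the choice of members. Both WKO +S arrays lay above both Col +S arrays for 26 of the 65 members, against 17.3% of all probe sets. Other members went the opposite way, such as AT5G37690, with 3.38 and 3.36 in WKO +S against 4.06 and 3.76 in Col +S. The difference of WKO +S from Col +S was above 0 for 37 members and below 0 for 28. Its median was 0.07, against -0.02 over all probe sets. A response of at least 4, a division made after the values were seen, was reached by 8 members. Of these, 5 had both Col +S arrays under background, and values under it have no order among themselves. Among the 5, 255105_at had both WKO +S arrays above background, at 0.40 and 0.35, and so above Col +S. In 252269_at 1 WKO +S array was under background and the other, at -0.25, was above it. The other 3 of the 8 were 249752_at, AT4G31330 and 260126_at, and in each both WKO +S arrays lay above both Col +S arrays. The unlisted 249752_at read 1.103 and 1.07 in WKO +S against 0.09 and -0.77 in Col +S, the lower of which was under background, while its -S levels were 7.07 and 6.90 in WKO and 6.90 and 6.70 in Col. For AT4G31330 the difference was 1.07, for GTR1 0.82 and for CHX16 0.69. In the limma fit, none of the 65 was called in this contrast, which called 5 probe sets in all (0.0225%). An unadjusted p under 0.05 was found for 25 members (38.5%), against 5.56% of all probe sets. Since the same arrays chose the members, that share is not a test of them.

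**Figure D3:**
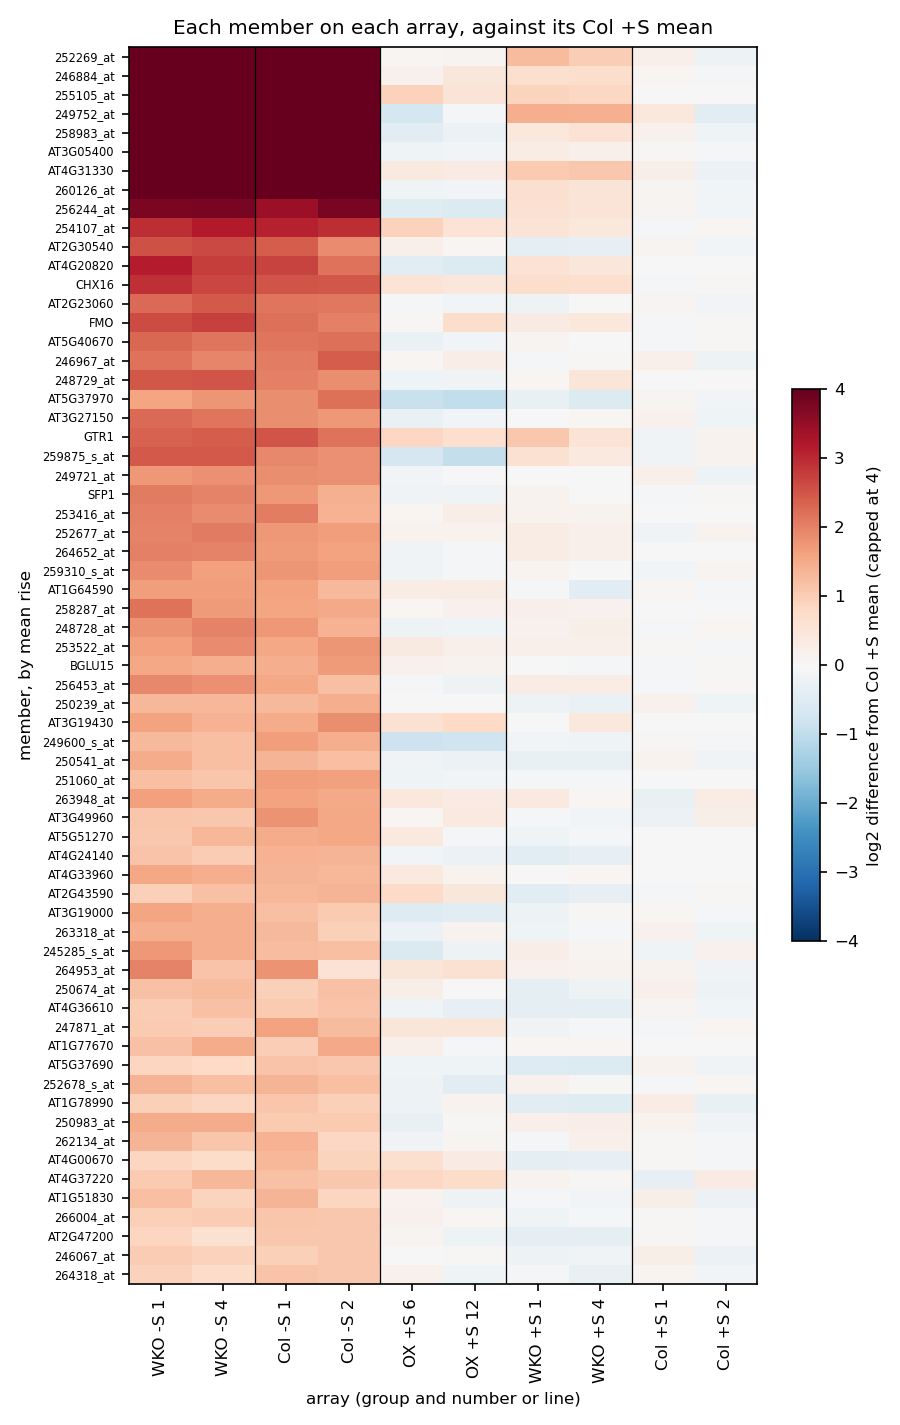
Log2 difference of each of the 65 members on each of the 10 arrays from the Col +S mean of that member, members in rows by mean response, arrays in columns by group, colours capped at 4. The 4 columns at -S are red in every row, the OX and Col columns at +S are near white in most rows, and the WKO +S columns are tinted red in the top 10 rows, some of which are under background at +S.

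At full sulfate, the differences of OX from Col lay on both sides of 0 over the members. The OX arrays took no part in choosing the members, but the Col +S arrays did, and were low by that choice. The difference of OX +S from Col +S had a median of -0.02 over the members, 31 above 0 and 34 below, against a median of 0.03 over all probe sets. Both of the following lay under background on all OX and Col +S arrays, so no difference was measured: AT3G05400 read -1.20 and -1.17 in OX against -1.005 and -1.09 in Col +S, and 246884_at read -1.34 and -1.05 in OX against -1.43 and -1.59 in Col +S. In the same OX roots the unlisted probe set 248676_at stood at 8.24 ± 0.41, against -1.02 ± 0.08 in Col +S and 8.99 ± 0.19 in Col -S. It read -1.19 ± 0.27 in WKO +S and -1.56 ± 0.22 in WKO -S. This probe set was chosen after its values were seen, as the one with WKO -S furthest below Col -S.

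The limma test called 3 of the 65 members in OX against Col at +S, all lower, where it called 0.649% of all probe sets and 0.405% lower. AT5G37970 read 1.65 and 1.55 in OX against 2.66 and 2.41 in Col +S, a difference of -0.94 ± 0.15 (SE, limma adjusted p = 0.037). The probe set 249600_s_at, shared by AT5G37940 and AT5G38000, read -0.48 and -0.44 in OX against 0.39 and 0.31 in Col +S, and was at least 1.40-fold lower (limma adjusted p = 0.010), since both OX arrays were under background. The unlisted 259875_s_at read 4.11 and 3.84 in OX against 4.67 and 4.93 in Col +S, a difference of -0.82 ± 0.13 (limma adjusted p = 0.037). The shoot markers RCA, LHCB4.1 and PSAE1 differed by -0.90, -0.04 and -0.37 in OX from Col at +S, none called, and their part in these calls was not tested. The probe sets 249600_s_at and 259875_s_at were named after their values were seen. None of the 3 calls held with the knockout line and Col number as a block, where limma called 0 members. Leaving out 1 array at a time gave 0 to 2 calls: 0 without Col +S 1 or OX +S 6, 2 without either Col -S array and 1 without any of the other 6 arrays. Of the 10 such fits, 249600_s_at was called in 6, AT5G37970 in 2, both without a Col -S array, and 259875_s_at in 0. Without Col +S 2 and without OX +S 12 the single call was another member, higher in OX, namely AT4G37220 and 255105_at in that order.

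No member was called higher in OX than in Col, where 0.243% of all probe sets were. At an unadjusted p under 0.05 in either direction there were 20 members (30.8%), against 9.01% of all probe sets. The Col +S arrays entered the choice of members, so this share is a description. The 20 include 246884_at, for which no difference was measured. The largest differences in size were those of the members called lower. Among members higher in OX, AT4G37220 differed most, at 0.89 and 0.78 in OX against -0.26 and 0.37 in Col +S (0.78 ± 0.19, limma adjusted p = 0.15). GTR1 came next, at 1.98 and 1.85 in OX against 1.02 and 1.30 in Col +S (0.75 ± 0.19, limma adjusted p = 0.16). For AT4G37220 both OX arrays lay above the midpoint between Col +S and Col -S, the only member for which they did. It was called without Col +S 2 (limma adjusted p = 0.040). The unlisted 255105_at read 0.42 and 0.02 in OX against -0.50 and -0.47 in Col +S (0.71 ± 0.14, limma adjusted p = 0.072). It was called without OX +S 12 and by 3 of the 8 other settings in which it was tested.

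Set against WKO at full sulfate, the limma test called 7 of the 65 members, where 0.383% of all probe sets were called, 0.306% lower and 0.0766% higher. This contrast shares the OX arrays with the preceding one. The WKO +S arrays entered the choice of members, and were low by that choice, so the number of members called is a description. Of the 6 lower in OX, 4 had both OX arrays under background, so that a fold is a lower bound. They were 252269_at, with -1.41 and -1.38 in OX against -0.25 and -0.52 in WKO +S (limma adjusted p = 0.032), for which 1 WKO +S array was under background too and no fold is given, and 249752_at, with -1.05 and -0.39 in OX against 1.103 and 1.07 in WKO +S (at least 2.35-fold lower, limma adjusted p = 0.038). They also held 256244_at, at least 1.59-fold lower (limma adjusted p = 0.011), and 249600_s_at, at least 1.29-fold lower (limma adjusted p = 0.036). The measured ones were 260126_at (-0.71 ± 0.11, limma adjusted p = 0.049) and 259875_s_at (-1.32 ± 0.13, limma adjusted p = 0.0029). The last 4 were named after their values were seen. The chitinase-like gene AT2G43590 was higher, at 4.17 and 3.87 in OX against 2.95 and 3.08 in WKO +S (1.00 ± 0.13, limma adjusted p = 0.011), while its level in Col +S was 3.36 and 3.45. With the replicate block only 1 of the 7 was called, 259875_s_at, whose call also held in all 10 fits that left out an array. Leaving out an array gave 1 to 7 calls: 3 without either WKO -S array, 1 without OX +S 6 or WKO +S 1, 2 without OX +S 12 and 4 without WKO +S 4.

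**Figure D4:**
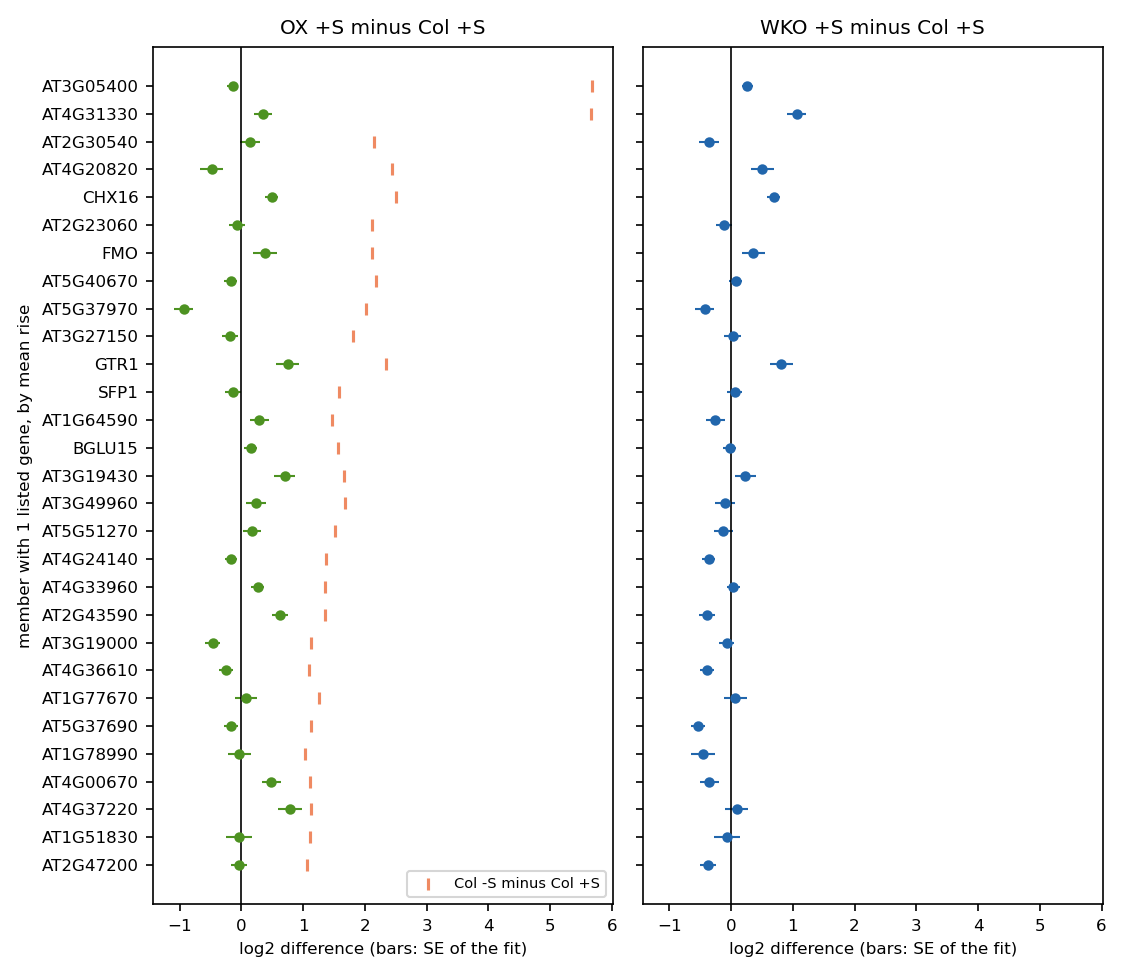
Log2 difference at full sulfate of OX from Col (left) and WKO from Col (right) for the 29 members with 1 listed gene, points with SE of the fit (5 groups of 2 arrays), and, on the left, ticks for the difference of Col -S from Col +S. The OX points lie between -0.94 and 0.78, while the ticks start at 1.03.

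Members that lie close together in the genome were few. Apart from BGLU15 beside the left-out BGLU28, and the AT3G05160 and AT3G05165 pair on a shared probe set, the reference gene order placed AT5G37970 and the genes of 249600_s_at within a run of 7 coding genes on chromosome 5, from AT5G37940 to AT5G38000. The run holds methyltransferases of the SABATH family and dehydrogenases related to alkenal reductases. It was singled out after the values were seen. The 5 probe sets of this run covered 6 genes.

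AT5G37990, a SABATH methyltransferase just outside the genotype window, read 6.74 and 6.65 in WKO -S and 7.26 and 7.37 in Col -S, against 4.099 and 3.96 in OX +S, 4.96 and 4.85 in WKO +S and 5.06 and 5.01 in Col +S. It was lower in OX than in Col at +S (-1.003 ± 0.10, limma adjusted p = 0.0034) and than in WKO at +S (-0.88 ± 0.10, limma adjusted p = 0.0069). AT5G37980, an alkenal reductase-like gene also outside the window, read 0.80 and 1.09 in WKO -S and 1.77 and 1.89 in Col -S, and was under background on all +S arrays, so its level in OX could not be set apart from that in Col. AT5G37960 was under background on all 10 arrays. In AT5G37970, AT5G37990 and 249600_s_at the order of levels was the same, with OX +S lowest, then WKO +S and Col +S, and WKO -S below Col -S. Probe sets of this run may share sequence, as the shared probe set does, and whether they hybridise to each other's transcripts was not tested.

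**Figure D5:**
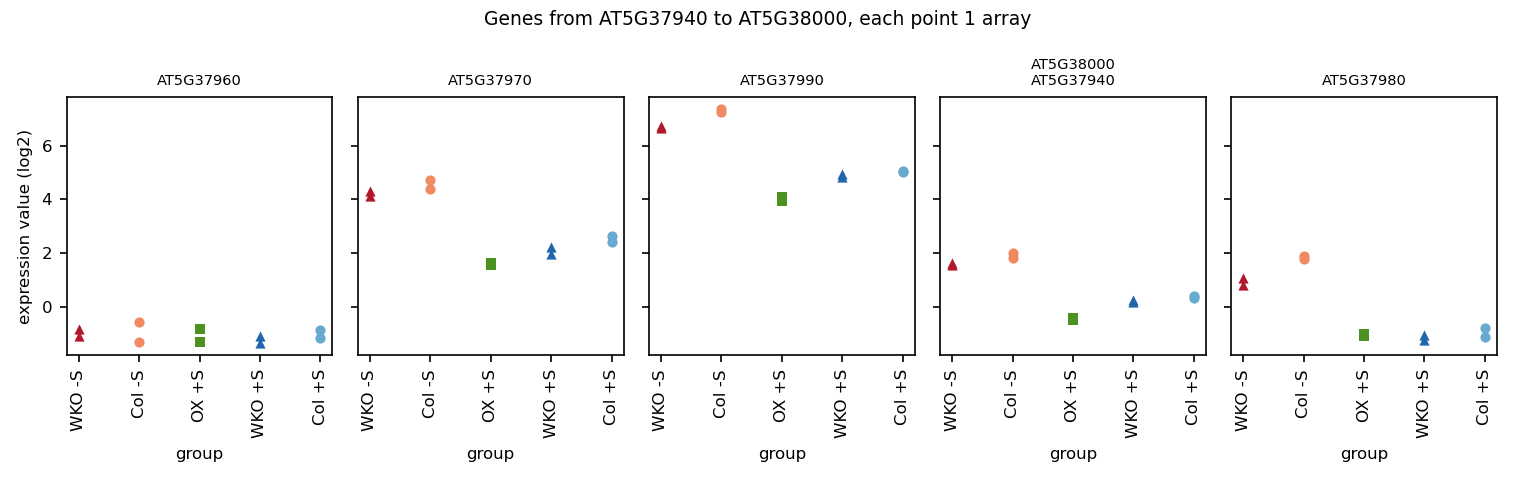
Log2 expression value on each array (vertical axis) by group (horizontal axis) for the 5 probe sets of genes from AT5G37940 to AT5G38000, one point per array. In AT5G37970, AT5G37990 and the probe set of AT5G38000 and AT5G37940 the -S points lie highest and the OX +S points lowest. AT5G37960 stays under background in all groups.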

How the data were processed

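Root RNA was hybridised to 10 ATH1 arrays in 5 groups of 2, assigned from the sample titles. The deposited table holds 1 log10 value for each probe set and array. The sources used here do not give how the authors summarised or normalised them, and their zero point is unknown. The base was settled from spiked controls: bioB and cre, at nominal 1.5 and 100 pM, lay 2.13 units apart on average, where 1.82 is expected on log10 and 6.06 on log2, so differences of bright probe sets may be overstated. The deposited log10 values were multiplied by 3.3219 to give log2 values, with no further normalization. Of 22810 probe sets, 554 without values and 64 controls (5 of the 64 both) were left out. Gene names came from the platform annotation, updated through Entrez IDs with RefSeq names of assembly TAIR10.1, which also gave the gene order. Of the tested probe sets 13093 list 1 gene, of which 13020 matched, 472 several and 8632 none. Levels of different probe sets are not compared.

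Group means over all 10 arrays were fitted with limma 3.58.1 in R 4.3.3 (5 residual and 3.81 prior degrees of freedom), with Benjamini-Hochberg adjustment over 22197 probe sets and a threshold of 0.05. The step was tested on simulated data. The members, lists, tests and thresholds were chosen with earlier results of these data known. Genes named were the 12 largest mean responses among members with 1 gene, members on a list, members called in OX against Col, values next to each threshold, chromosomal neighbours and up to 4 unlisted probe sets. All other 1-gene members are named too, with their values. Knockout arrays of the same line are paired by it, with deviations from group means correlated at 0.07, and Col arrays of the same number at -0.14. Promoter motifs and sequences were not analysed here.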

Additional observations from a re-analysis of the deposited data

How the results depend on the processing

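The number of members, 65, was 65 after quantile normalization (64 shared) or median centring (65 shared), and 54 to 67 without each Col or WKO array in turn. It was 32 with a response of at least 1.5, 37 with a genotype window of 0.3, 96 with a response of at least 0.8, 78 with a window of 1, 56 with a level above 1.5, 76 with no such level, and 48 when all arrays had to be apart by 1. Calls in OX at full sulfate depended on the fit, and the cause was not tested. Against Col, limma called 144 probe sets and 3 members. These were 253 and 6 without the dimmest probe sets, 260 and 7 with an intensity trend and robust variances, 71 and 0 with only the arrays compared, 51 and 0 with 1 probe set per gene, 62 and 0 with the replicate block, and, in a filter chosen after seeing the data, 295 and 7 with at least 2 arrays above background. Array weights gave 1 member. Leaving out an array gave 36 to 131 probe sets and 0 to 2 members. Against WKO, limma called 85 probe sets and 7 members. These became 137 and 10 with trend and robust variances, 104 and 10 after quantile normalization, and 111 and 10 without the dimmest probe sets. Array weights gave 107 and 9, and the background filter gave 151 probe sets. The counts were 43 and 1 with only the arrays compared, 25 and 1 with 1 probe set per gene, and 41 and 1 with the replicate block. Leaving out an array gave 41 to 120 probe sets and 1 to 7 members. Settings that dropped arrays or genes have fewer of them by construction. Of 554 recomputed single differences, 460 kept direction and side of the threshold, 79 lost a call, 10 gained one and 5 turned sign, all 5 uncalled and all on leaving out an array. The ranges over those fits were -0.81 to 0.0503 for 249752_at and -0.092 to 0.30 for 252269_at against Col, and -0.35 to 0.0507 for 255105_at and -0.34 to 0.20 for GTR1 against WKO. For members under background at full sulfate, signal limits a response to a lower bound.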

Other observations

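Apart from the level required of Col -S, 11 more probe sets met the conditions of the response and the genotype window, with Col -S means at or under 0.5. Among named genes these included AT2G17650 at 0.39, AT5G11930 at 0.32 and AT3G07710 at 0.29, with responses of 1.44, 1.08 and 1.15 in WKO and 1.03, 1.27 and 1.02 in Col.

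Just above the genotype window lay AT3G56200, an amino acid transporter family gene, and MSRB5, a methionine sulfoxide reductase, which returns oxidised methionine to its reduced form. AT3G56200 responded by 3.03 in WKO and 2.90 in Col, with WKO -S above Col -S by 0.70. MSRB5 responded by 1.73 in WKO and 1.45 in Col, with WKO -S above Col -S by 0.84.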
